A study of Mus musculus with 4 samples.

Results

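The transcripts of the cytoplasmic ribosomal proteins and the non-coding RNA Gas5 were examined in primary smooth muscle cells of the mouse aorta. Members were all probes whose gene name is a ribosomal protein of the large subunit (Rpl and a number, or Rplp0, Rplp1, Rplp2) or of the small subunit (Rps and a number, or Rpsa), and every Gas5 probe. Kinases named Rps6k were left out. This gave 83 of 27827 gene names, 50 of the large subunit, 32 of the small subunit and Gas5. They had 143 of the 41174 probes on the array, 83 for the large subunit, 58 for the small subunit and 2 for Gas5.

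Cells of the genotype Atg7F/F SM22α-Cre+, with both Atg7 alleles floxed, were set against cells of the genotype Atg7+/+ SM22α-Cre+, with normal Atg7 alleles. Both are labelled strain C57LB/6. Both also carry Cre, driven by the smooth muscle promoter SM22α, so Cre itself is shared. Atg7 is the E1-like enzyme needed to build autophagosomes, and the comparison asks which transcripts differ when smooth muscle cells lack it. The culture medium was DMEM/F-12 with 10% FBS, and cells were taken at passages 4 to 10. There were 2 biological replicates per genotype, and whether each came from 1 animal or several is not stated in the labels. Each pair of same-numbered Atg7F/F and Atg7+/+ RNAs was hybridised together, once in each dye orientation (Cy5 and Cy3), on 4 arrays in all.

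A ribosome is built from a small subunit, which reads the mRNA, and a large subunit, which forms peptide bonds, and each holds one copy of most of its proteins. The mRNAs of ribosomal proteins begin with a terminal oligopyrimidine tract (TOP), through which mTORC1 and the RNA-binding protein Larp1 control their translation together. Gas5 (growth arrest-specific) carries small nucleolar RNAs in its introns and also starts with a TOP tract, and its spliced RNA is degraded by nonsense-mediated decay when translated and accumulates when translation or growth stops. Ribosomes themselves are a cargo of autophagy.

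The annotated starts of Gas5, Rps6 and Rps27 are shown because they hold the feature that joins Gas5 to the ribosomal proteins. Each line runs 5′ to 3′ over 60 bases from RefSeq on GRCm38.p6, and the capitals mark the run of C and T that begins at the annotated start. The Gas5 line lies at chr1:161035136-161035195 on the plus strand, the Rps6 line at chr4:86857338-86857397 and the Rps27 line at chr3:90213619-90213678, both on the minus strand.
Gas5 start: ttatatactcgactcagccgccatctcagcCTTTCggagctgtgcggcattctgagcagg
Rps6 start: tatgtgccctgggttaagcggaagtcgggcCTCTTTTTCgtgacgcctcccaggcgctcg
Rps27 start: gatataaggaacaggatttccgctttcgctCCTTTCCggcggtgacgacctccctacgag
A C at the annotated start followed by at least 4 more C or T, read on the gene's own strand, was found for 13 of the 62 ribosomal protein names in the RefSeq promoter table (21.0%), against 813 of all 27025 gene symbols (3.0%). Within 10 bases of the start the share was 61.3% of these ribosomal protein names, against 34.4% of all symbols. Gas5 had such a run at 1 of its 2 annotated starts. These matches describe letters only, and their part in any value below was not tested.

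The 2 Gas5 probes are shown because they gave very different signals. Coordinates are those of the deposited files on mm9, plus strand, and whether a probe lies in an exon or which isoform it reads is not stated here.
Gas5 probe for X59728: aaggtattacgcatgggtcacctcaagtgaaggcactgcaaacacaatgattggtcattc
Gas5 probe for BC004622: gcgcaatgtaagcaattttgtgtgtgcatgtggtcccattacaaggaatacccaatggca
The first lies at chr1:162967444-162967689, where its 60 bases align over a span of 246 bases, and the second at chr1:162966369-162966428. Both have 45.0% G and C.

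Gas5 was lower in Atg7F/F cells on all 4 arrays with both probes, but by very unequal amounts in the 2 replicates. With the brighter probe (X59728), replicate 1 gave raw mean signals of 5155 (Cy5) and 3105 (Cy3) in Atg7F/F cells, against 8772 (Cy5) and 6345 (Cy3) in Atg7+/+ cells. Replicate 2 gave 189 (Cy5) and 127 (Cy3) in Atg7F/F cells, against 14838 (Cy5) and 10677 (Cy3) in Atg7+/+ cells. The genotypes did not overlap in either dye, and the Atg7F/F extract of replicate 2 stood far below the other 3 extracts. Its spots came much nearer to the local background, which was 75 (Cy5) and 44.5 (Cy3) there, yet were well above background by the scanner software's own call. The log2 ratio of Atg7F/F over Atg7+/+ was -0.88 on one array of replicate 1 and -0.96 on the other, and -5.51 and -6.40 on those of replicate 2. Gas5 was 1.89-fold lower in replicate 1 and 62.1-fold lower in replicate 2. The size in replicate 2 depends on the background correction. With a normexp offset of 0 it was 86.6-fold, and with the scanner software's processed signals it was 133.5-fold, while replicate 1 gave 1.89-fold and 1.91-fold.

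The mean log2 ratio of the brighter Gas5 probe was -3.44 ± 3.56 (SD, n = 2), and limma's p was 0.0938 before adjustment and 0.9997 after adjustment over all 17109 probes tested. The mean was thus no larger than the SD between replicates. Among the probes tested, this one had the lowest ratio in replicate 2 and the lowest mean ratio, and was at rank 68 from the lowest in replicate 1. By the SD between replicates it stood at rank 4 from the highest. An exact sign-flip test over 2 replicates cannot give a two-sided p under 0.5.

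The dimmer Gas5 probe (BC004622) gave raw signals of 112 and 98.0 (Cy5) and 71.5 and 65.7 (Cy3) in Atg7F/F replicates 1 and 2, against 117 and 147 (Cy5) and 78.0 and 102 (Cy3) in Atg7+/+ replicates 1 and 2. These spots were close to their background, which was 80 to 85 in Cy5 and 43.5 to 45 in Cy3. Its log2 ratios were -0.10 in replicate 1 and -0.43 in replicate 2, with a mean of -0.26 ± 0.23 (SD, n = 2), and limma's p was 0.111, or 0.9997 when adjusted. A normexp offset of 50 pulls ratios of such dim spots towards 0, and with the scanner software's processed signals the mean ratio was -1.31. Both probes had the lower ratio in replicate 2, and neither put Gas5 higher in Atg7F/F cells in either replicate.

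**Figure D1:**
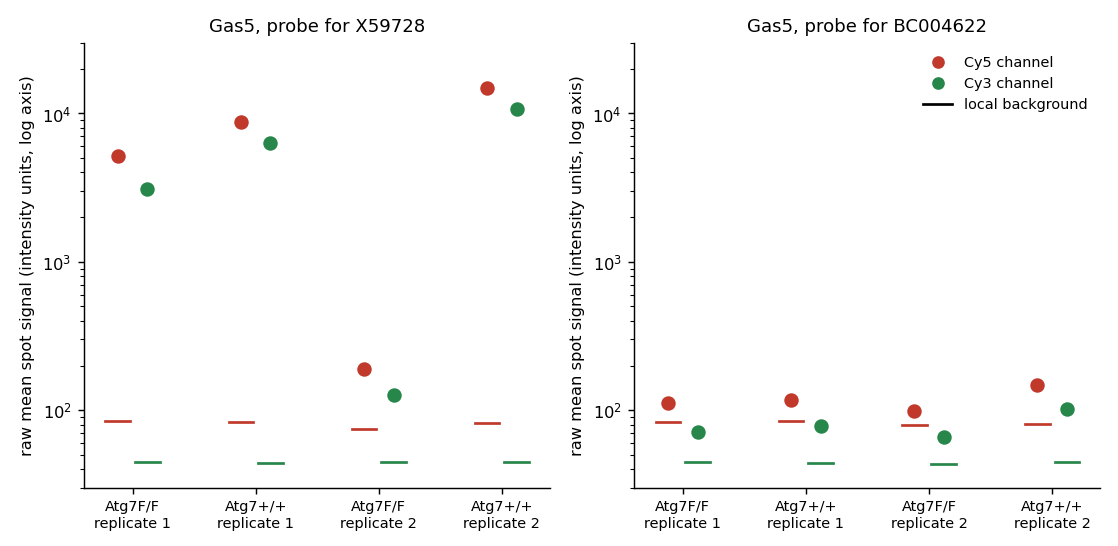
Raw mean spot signal (intensity units, log axis) of the 2 Gas5 probes in each extract, with Atg7F/F left of Atg7+/+ within each replicate; points are single channels coloured by dye and short lines the local background of the same channel. With the X59728 probe, the Atg7F/F extract of replicate 2 sits at 127 and 189, over backgrounds of 44.5 and 75. The other extracts sit between 3105 and 14838.

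Genes around Gas5 on chromosome 1 had ratios much nearer to 0. Of 25 probes within 500 kb, 8 were past the filter for signal and spot uniformity, over 5 genes. Their mean log2 ratios ran from -0.21 to 0.26. The probe of Tnfsf18, a TNF family ligand, had the highest at 0.26, and the 3 probes of Prdx6, a peroxidase, disagreed in sign at -0.21, 0.17 and 0.19. Cenpl, a centromere protein, had 0.08 and 0.12. Klhl20, a ubiquitin ligase adaptor, had -0.02, and the RNA-binding protein Rc3h1 had 0.00.

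The probes outside the members whose 4 array ratios lay nearest to those of the brighter Gas5 probe, by Euclidean distance, also differed mainly in replicate 2. They were BC006751 at a distance of 3.66 log2 units, Sparc at 3.82 and Trappc4 at 4.89. BC006751 had log2 ratios of 0.06 in replicate 1 and -3.57 in replicate 2. Sparc, a matricellular collagen-binding protein, had 0.86 in replicate 1 and -3.93 in replicate 2. Trappc4, a vesicle tethering subunit, had 0.02 and -2.63, and its other probe 0.00 and -1.65. None was close to Gas5, since Gas5 alone of these 4 was also lower in replicate 1 by more than 0.5 log2 units. Of all probes tested, 13 lay beyond 3 log2 units in at least 1 replicate, and 1 of them, for the glutathione S-transferase Gsta1, did so in both with the same sign.

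Of the 141 ribosomal protein probes, 113 were past the filter, 70 for 45 large subunit genes and 43 for 31 small subunit genes. To pass, a probe needed no non-uniformity flag and, in 1 or both genotypes, a signal well above background on every array. Of the 28 that did not pass, 16 were dim and 12 were flagged as non-uniform spots. The flagged probes were among the brightest of the array, with a mean log2 signal of 15.87 to 16.82, and their log2 ratios lay between -0.05 and 0.26. Rpl12, Rpl38, Rpl39l, Rpl3l, Rplp2 and Rps23 had no probe past the filter. One probe, for Rps3a, passed through 1 genotype only. Ribosomal protein mRNAs were bright as a group, with 79 of the 113 probes above a mean log2 signal of 12 and 20 below 8.

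No ribosomal protein transcript passed the test. After adjustment by limma over all 17109 probes 0 of the 113 were called, against 0.0% of all probes, and at an unadjusted p under 0.05 there were 2 of 113, against 3.13% of all probes. Mean log2 ratios ran from -0.24 for Rps26 to 0.37 for Rps13, so none was 2-fold apart, as 0.281% of all probes were. The median over the 113 probes was 0.05, with quartiles of -0.01 and 0.12, against 0.00 over all probes tested. The large subunit had a median of 0.04 and the small subunit one of 0.06. Of the 113 ratios, 80 were above 0 and 33 below. With each array centred on its median in place of loess, 104 were above 0 and the median was 0.17, against 0.04 for all probes.

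The replicates did not give the group one direction. The median log2 ratio of the 113 probes was 0.12 in replicate 1 and 0.00 in replicate 2, where all probes tested had 0.00 in both. In replicate 1 the ratio was above 0 for 103 probes, and in replicate 2 for 54. The signs were opposite in the 2 replicates for 57 probes (50.4%), against 53.7% of all probes. Of these, 53 (46.9%) were higher in Atg7F/F cells in replicate 1 and lower in replicate 2, against 26.4% of all probes, and 4 were the other way round. Above 0 in both replicates were 50 probes (44.2%), against 23.4% of all probes. Below 0 in both were 6 (5.31%), against 22.8% of all probes.

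**Figure D2:**
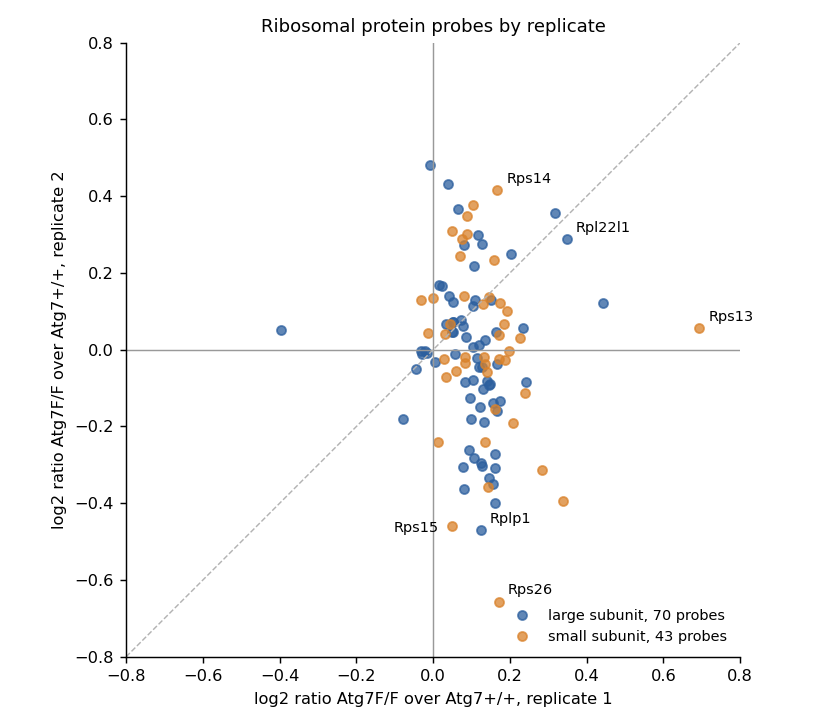
Log2 ratio of Atg7F/F over Atg7+/+ in replicate 1 (x axis) and replicate 2 (y axis) of each ribosomal protein probe past the filter, 70 of the large and 43 of the small subunit; the dashed line marks equal ratios. Most points lie right of 0 on the x axis and spread to both sides of 0 on the y axis, with Rps26 lowest and Rps13 farthest right.

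The dye also moved with these ratios. On the arrays with Atg7F/F in Cy5 the median log2 ratio of the 113 probes was 0.21 in replicate 1 and 0.08 in replicate 2, and on those with Atg7F/F in Cy3 it was 0.01 and -0.08. Where the Cy5 genotype was the higher one on all 4 arrays, the sign of the ratio followed the dye orientation. This held for 29 of the 113 probes (25.7%), against 7.53% of all probes. The Cy3 genotype was higher on all 4 arrays for none of the 113, against 6.98% of all probes. Whether the dye set the sign of any single probe was not tested. The share was highest for the brightest probes, and below a mean log2 signal of 15 it had no steady order. Of the 15 ribosomal protein probes with a mean log2 signal between 16 and 17, 80% had this pattern, against 50% of all 54 probes tested in that range. Between 15 and 16 it was 26.5% of 34 probes, against 20.1% of all 149, and between 12 and 15 it was 10% of 30, against 5.16% of all 1493. Between 8 and 12 it was 14.3% of 14, against 9.31% of all 7559, and between 6 and 8 it was 15% of 20, against 5.71% of all 7851. Rpl41, which encodes the smallest ribosomal protein, gave log2 ratios of 0.78 and 0.68 with Atg7F/F in Cy5 and of -0.67 and -0.59 with Atg7F/F in Cy3. Its mean over the dye swaps was 0.05 ± 0.00 (SD, n = 2).

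**Figure D3:**
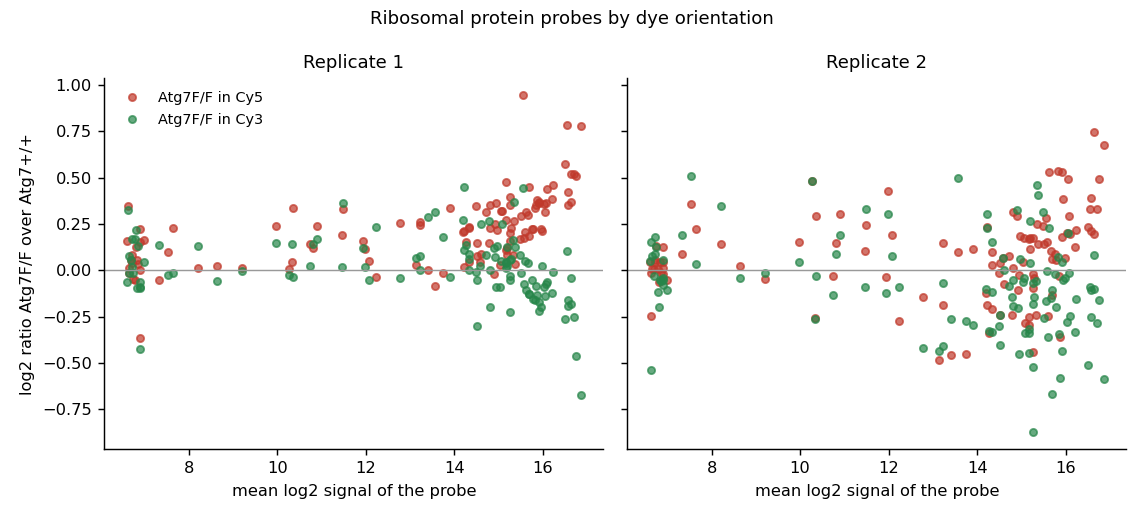
Log2 ratio of Atg7F/F over Atg7+/+ against the mean log2 signal of each ribosomal protein probe past the filter, by replicate and dye orientation; each probe has 1 point per array. The orientations part towards the bright end, above a mean log2 signal of 15, with the points of the arrays with Atg7F/F in Cy5 above those with Atg7F/F in Cy3.

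Higher in Atg7F/F cells on all 4 arrays were 17 of the 113 probes (15.0%), against 10.2% of all probes. They were for Rpl11, Rpl13, Rpl19, Rpl22l1, Rpl23, Rpl23a, Rpl27a, Rpl30, Rpl36a (2 probes), Rpl7a, Rplp0, Rps15a, Rps19, Rps27a, Rps4x and Rpsa, and their mean log2 ratios ran from 0.05 to 0.34. Lower on all 4 arrays was none, against 10.1% of all probes. The genes are listed whatever their p, and all had an adjusted p of 0.9997 or more by limma.

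Rplp0 and Rpl22l1 had the smallest p-values among the members. Rplp0 is the base of the stalk on the large subunit that recruits elongation factors. One of its 3 probes gave raw signals of 61560 and 57247 (Cy5) and of 37312 and 38235 (Cy3) in Atg7F/F replicates 1 and 2, against 46268 and 41898 (Cy5) and 31120 and 31731 (Cy3) in Atg7+/+ replicates 1 and 2. The genotypes did not overlap in either dye. The mean log2 ratio of this probe was 0.34 ± 0.03 (SD, n = 2), and limma's p was 0.0209, or 0.9997 when adjusted. The brightest Rplp0 probe had 0.28 ± 0.23 and the third one 0.15 ± 0.13.

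Rpl22l1 is the paralog of Rpl22, and in mice Rpl22 protein is known to hold down Rpl22l1 expression. Its probe and the 2 probes of Rpl22 are shown because the Rpl22 probes disagreed. They lie on mm9, plus strand, at chr3:28706197-28706256 for Rpl22l1, at chr4:151704158-151704217 for the brighter Rpl22 probe and at chr4:151708012-151708071 for the dimmer one.
Rpl22l1 probe: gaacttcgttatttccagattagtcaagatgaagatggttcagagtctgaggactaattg
Rpl22 brighter probe: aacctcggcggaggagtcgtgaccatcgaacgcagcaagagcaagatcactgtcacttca
Rpl22 dimmer probe: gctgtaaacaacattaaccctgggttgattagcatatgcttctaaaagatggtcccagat
Rpl22l1 gave raw signals of 3642 and 3827 (Cy5) and of 2303 and 3013 (Cy3) in Atg7F/F replicates 1 and 2, against 2539 and 3340 (Cy5) and 1996 and 2601 (Cy3) in Atg7+/+ replicates 1 and 2. The genotypes did not overlap in Cy5 and overlapped in Cy3. Its 4 log2 ratios lay between 0.24 and 0.36, with a mean of 0.32 ± 0.04 (SD, n = 2), and limma's p was 0.0252, or 0.9997 when adjusted. The brighter Rpl22 probe had log2 ratios of 0.16 in replicate 1 and -0.40 in replicate 2, with a mean of -0.12 ± 0.40. The dimmer Rpl22 probe had -0.01 and 0.48, with a mean of 0.24 ± 0.35 (SD, n = 2). In replicate 2 the probes of Rpl22 thus differed in sign, and neither mean was larger than the spread between replicates.

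Besides Rplp0 and Rpl22l1, the genes with the highest mean ratios, each by its brightest probe, were Rps13, Rps14, Rps12, Rps20, Rpl27a and Rpl4. Rps13, a small subunit protein, gave 86907 and 63940 (Cy5) and 43535 and 36981 (Cy3) in Atg7F/F replicates 1 and 2, against 51542 and 63057 (Cy5) and 27331 and 34375 (Cy3) in Atg7+/+ replicates 1 and 2. The genotypes did not overlap, but only just in replicate 2 in Cy5. Its log2 ratio was 0.69 in replicate 1 and 0.06 in replicate 2, a mean of 0.37 ± 0.45 (SD, n = 2). A second and much dimmer Rps13 probe had a mean of 0.01. Rps14, which is lost on one chromosome in a human anaemia, had 0.29 ± 0.18, and Rps12 and Rps20, proteins of the small subunit head, had 0.24 ± 0.19 and 0.22 ± 0.18. Rpl27a had 0.22 ± 0.21, and Rpl4, which lines the exit tunnel, had 0.21 ± 0.13. Rps14, Rps12 and Rps20 were below 0 on 1 array each, the one of replicate 1 with Atg7F/F in Cy3. Rps13 and the brightest Rplp0 probe were below 0 on the array of replicate 2 with Atg7F/F in Cy3, at -0.17 and -0.09, and Rpl4 on that of replicate 1 with Atg7F/F in Cy5, at -0.08.

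The genes with the lowest mean ratios were Rps26, Rps15, Rplp1, Rpl10, Rpl29, Rpl22, Rps27l and Rpl15. Rps26, which touches the mRNA upstream of the start codon, gave 58503 and 41263 (Cy5) and 31461 and 22864 (Cy3) in Atg7F/F replicates 1 and 2, against 52148 and 62991 (Cy5) and 27138 and 37200 (Cy3) in Atg7+/+ replicates 1 and 2. Atg7F/F cells were higher in replicate 1 and lower in replicate 2. The log2 ratios of Rps26 were 0.17 and -0.66, with a mean of -0.24 ± 0.59 (SD, n = 2). Rps15, in the head of the small subunit, had 0.05 and -0.46. Rplp1, an acidic stalk protein, had 0.12 and -0.47. Rpl10, which joins the large subunit late and lies near its catalytic centre, had 0.08 and -0.36. Rpl15 had 0.16 and -0.35, and Rps27l, a p53-induced paralog of Rps27, had 0.01 and -0.24. Rpl29 was below 0 in both replicates at -0.08 and -0.18, and the other 7 had opposite signs. The sign of Rpl29 followed the dye, at 0.15 and 0.04 with Atg7F/F in Cy5 and -0.30 and -0.40 with Atg7F/F in Cy3.

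**Figure D4:**
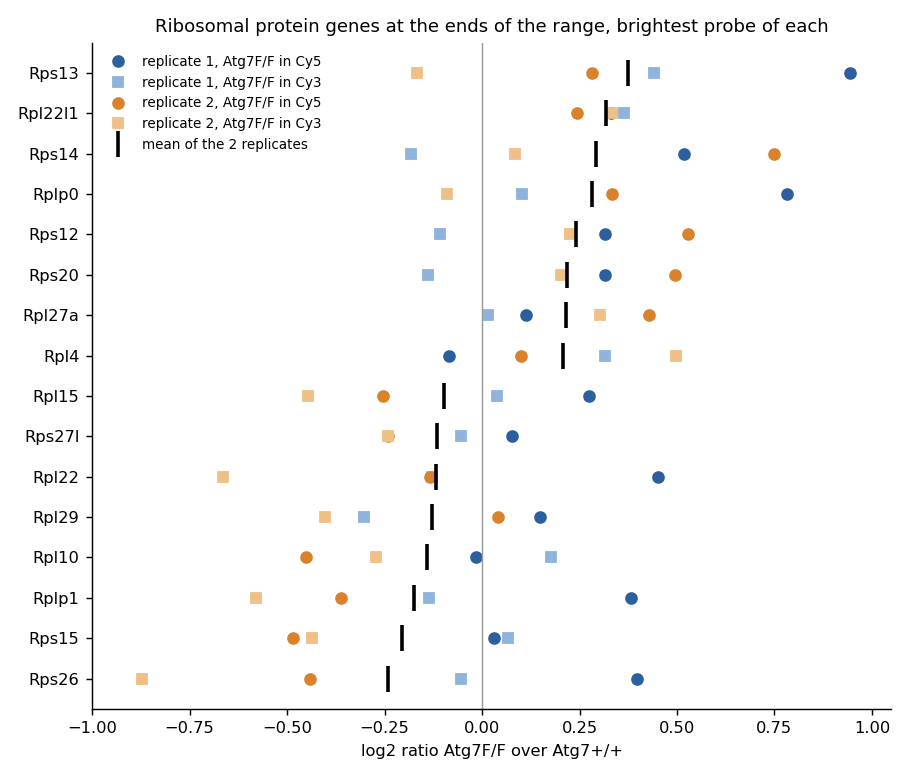
Log2 ratio of Atg7F/F over Atg7+/+ on each of the 4 arrays for the 8 ribosomal protein genes with the highest and the 8 with the lowest mean, each by its brightest probe; colours mark the replicate, circles and squares the dye orientation, and bars the mean. Only Rpl22l1 and Rpl27a among the 8 highest lie above 0 on all 4 arrays, and none of the 8 lowest lies below 0 on all 4.

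Proteins with roles beyond the ribosome had ratios within the same range. Rpl5 and Rpl11, which bind Mdm2 together with the small ribosomal RNA of the large subunit, had mean log2 ratios of 0.01 ± 0.21 and 0.20 ± 0.11. Rpl23, also a binder of Mdm2, had 0.04 ± 0.12 by its brighter probe, with opposite signs in the replicates, and 0.23 ± 0.03 by its dimmer probe, which had one of the 4 smallest p-values. Rps6, the target of the S6 kinases, had 0.11 ± 0.09. Rps27a, made as a fusion with ubiquitin, had 0.15 ± 0.07, and Rpsa, known also as a laminin receptor, had 0.18 ± 0.18. Rpl13a, a translational silencer in inflammation, had 0.07 ± 0.01, with log2 ratios of 0.36 and 0.32 in one dye orientation and -0.20 and -0.19 in the other. Rps19, mutated in a human anaemia, had 0.14 ± 0.01 and Rps4x, encoded on the X chromosome, had 0.20 ± 0.05 (SD, n = 2 for each of these). The Rps19 value is that of its brightest probe, with 0.36 and 0.29 with Atg7F/F in Cy5 and -0.07 and -0.02 with it in Cy3. A dimmer Rps19 probe, above 0 on all 4 arrays, had a mean of 0.13.

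Other core proteins and paralogs gave the following log2 ratios. Rpl3 at the catalytic centre had 0.06 ± 0.14, Rpl7 had 0.03 ± 0.17 and its paralog Rpl7l1 had 0.00 ± 0.12. Rpl39 in the exit tunnel had 0.05 ± 0.07, and the ratio of Rps27 was 0.19 ± 0.15, against -0.11 ± 0.18 for its paralog Rps27l. The muscle paralog Rpl3l and the testis paralog Rpl39l had no probe past the filter. Several probes passed for 31 genes, and for none of these genes did they differ by 0.5 log2 units. The widest gaps were 0.36 for Rps13 and 0.36 for Rpl22, and the median gap was 0.12. Ribosomal proteins have many processed pseudogenes, and signal from such copies cannot be told apart from the named transcript. Of the 143 member probes, 7 shared an exact run of 25 bases in the same sense with a probe of another name.

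Other genes of ribosome production and use, from lists chosen with earlier results of these data known, had 0 members at an unadjusted p under 0.05 in either direction, against 3.13% of all probes, and 0 called by limma's adjusted p, against 0.0%. Genes of these lists are given by their probe with the smallest p. Translation factors whose mRNAs are TOP mRNAs had a median near that of the ribosomal proteins. Over 37 probes of 22 genes the median log2 ratio was 0.06 (0.09 in replicate 1 and 0.02 in replicate 2), with 8 probes higher and 0 lower on all 4 arrays, where all probes tested had 10.2% and 10.1%. Hnrnpa1, an RNA-binding protein, had 0.19 ± 0.01, Eef2, the translocation factor, 0.18 ± 0.08, and Eif4b, a helicase cofactor, 0.17 ± 0.10 (SD, n = 2). The first 2 differed by dye orientation. Hnrnpa1 had 0.39 and 0.38 with Atg7F/F in Cy5 and 0.008 and -0.004 with it in Cy3. Eef2 had -0.15 and -0.03 with Atg7F/F in Cy5 and 0.40 and 0.50 with it in Cy3.

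Ribosome assembly and nucleolar genes had opposite signs in the 2 replicates for 57 of 63 probes, against 53.7% of all probes tested. Their median of -0.04 came from 0.09 in replicate 1 and -0.21 in replicate 2, and 1 probe was higher and 1 lower on all 4 arrays. Myc, the transcription factor that drives ribosome production, had 0.21 ± 0.00. Utp20, of the small subunit processome, had -0.22 ± 0.32, and Wdr74, an assembly factor, had -0.22 ± 0.33. The 105 probes for 74 mitochondrial ribosomal proteins had a median of -0.04 (0.03 and -0.09), with 4 higher and 7 lower on all 4 arrays, and the lowest, Mrps14, had -0.33 ± 0.18. Nonsense-mediated decay factors, which act on Gas5 RNA, had a median of 0.02 over 18 probes, and 1 probe was higher and 2 were lower on all 4 arrays. Their helicase Upf1 had 0.13 ± 0.01, with -0.08 and -0.05 in one dye orientation and 0.32 and 0.32 in the other, and Magoh, of the exon junction complex, had -0.15 ± 0.25. Factors of ribosome turnover and quality control had a median of 0.01 over 17 probes, with Pelo, which rescues stalled ribosomes, at 0.26 ± 0.15.

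Of 21 genes listed as other hosts of small nucleolar RNAs, 2 had a probe past the filter, Meg3 and Snhg3. Whether Meg3 is itself such a host was not checked here. Meg3 had log2 ratios of -0.17 and -0.28 in replicates 1 and 2 by its brighter probe, below 0 on all 4 arrays, and 0.04 and -0.07 by its dimmer one. Snhg3 had 0.17 and -0.69 by its only probe past the filter. Neither passed the test, and the range of all 3 probes, -0.26 to -0.01, was far from the -3.44 of the brighter Gas5 probe.

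**Figure D5:**
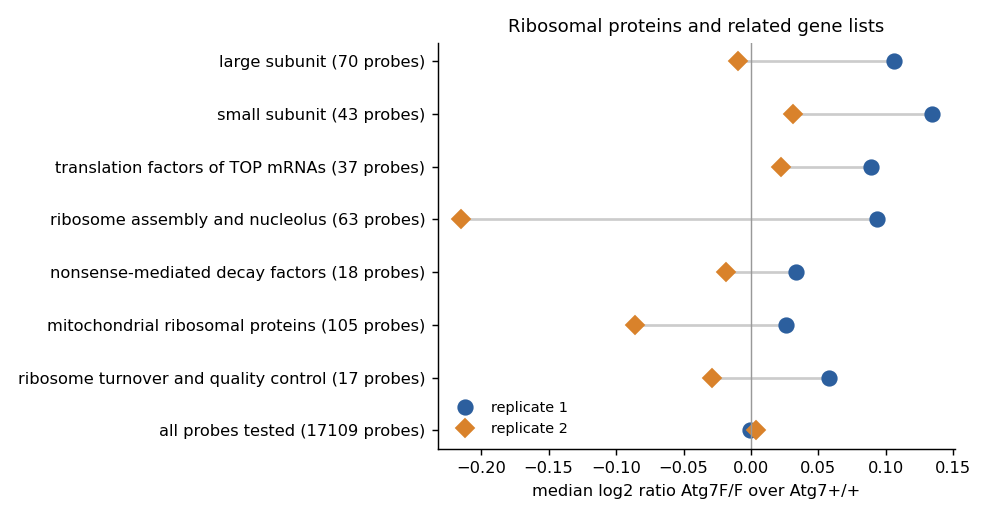
Median log2 ratio of Atg7F/F over Atg7+/+ in replicate 1 (circles) and replicate 2 (diamonds) for the probes of each subunit, of the related gene lists with at least 10 probes, and of all probes tested. Each subunit and each list lies above 0 in replicate 1, and ribosome assembly genes lie farthest apart, at 0.09 and -0.21.

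Facts of the whole series bear on these values as follows. In each channel 43.3% to 45.5% of spots passed the software's call of well above background, 0 spots were saturated, and all 4 arrays lay on 1 slide scanned once, so there was no slide or scan to compare. The Atg7 probe past the filter had a log2 ratio of -1.22 ± 0.07 (SD, n = 2), below 0 on all 4 arrays, with raw signals of 81.6 to 159 in Atg7F/F cells and 255 to 328 in Atg7+/+ cells; whether it lies in the deleted part is not stated. Of 10 smooth muscle markers 8 were measured, and Myocd and Myl9 had no probe past the filter. The endothelial markers were lower in Atg7F/F cells on all 4 arrays for 10 of 12 probes and the smooth muscle markers for 4 of 12, against 10.1% of all probes. Their summed normalised signal was 8188 and 7503 in Atg7F/F replicates 1 and 2, against 8758 and 13901 in Atg7+/+ replicates 1 and 2. Smooth muscle markers summed to 334863 and 249167 in Atg7F/F cells, against 354903 and 303476 in Atg7+/+ cells, and fibroblast markers to 7885 and 6155 in Atg7F/F cells, against 10049 and 5944 in Atg7+/+ cells. Of 9 macrophage and leukocyte marker names 4 were measured. Ptprc, Adgre1 (also listed under its other name Emr1), Itgam and Mrc1 had no probe past the filter. Those measured summed to 2132 and 4801 in Atg7F/F replicates 1 and 2, against 2770 and 3496 in Atg7+/+ replicates 1 and 2. In such bulk RNA, fewer cells of a type and less RNA per cell cannot be told apart, and the part of these differences in the Gas5 and ribosomal protein values was not tested.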

How the data were processed

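RNA of 2 biological replicates per genotype was measured on 4 two-colour Agilent arrays, and each channel's genotype came from the labels. The deposited scanner files hold mean and local background intensity per spot, not normalized, together with the software's processed signals and a log10 ratio, which the authors' Agilent Feature Extraction 10.1.1.1 wrote, per the headers and the submitters' notes on processing. The deposited value table holds the authors' log2 ratios of Atg7F/F over Atg7+/+. On each array 100% of 40929 single-spot probes matched the processed-signal ratio to within 0.001, with column medians of 0.199 and -0.0939 in replicate 1 and 0.0809 and -0.0371 in replicate 2, so scale, direction and the lack of centring are known.

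Intensities were background-corrected with normexp (offset 50) and loess-normalized within arrays, control spots at weight 0, in limma 3.58.1 and R 4.3.3. The 245 probes with 10 spots were averaged. Dye swaps were averaged, which left n = 2 replicates, and 17109 probes past the filter were tested against 0 with lmFit and eBayes, two-sided, with Benjamini-Hochberg adjustment and a threshold of 0.05 (3.09 degrees of freedom, 2.09 from the prior). The code was tested on simulated data. The pairing of replicates comes from the hybridisation scheme, and deviations of same-numbered extracts correlated at 0.198 across probes. The number of arrays limits the precision.

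The members, lists and alternatives were chosen with earlier results of these data known. Genes named were Atg7, every Gas5 probe, the 8 highest and 8 lowest ribosomal protein genes by mean ratio of the brightest probe, the 4 with the smallest p, a set of genes with known roles or paralogs, up to 4 of each list by p, genes past the filter within 500 kb of Gas5, and the 3 probes nearest to Gas5 in ratio. Not every gene so named is reported. Rpl41, Gsta1 and the probes higher on all 4 arrays were named after their values were seen. Chromosomes of 140 member probes matched RefSeq, 2 differed (Rpl10 and Rpl12) and 1 had no coordinate. Alternatives covered background correction, processed signals, the deposited table, normalization, filters, the unit tested, the variance model, the dye orientation, each replicate and the flagged probes.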

Additional observations from a re-analysis of the deposited data

How the results depend on the processing

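The count of called ribosomal protein and Gas5 probes was 0 in limma under every alternative that gives a test. The count over all probes was also 0 except with the 4 arrays under a random block for the dye-swap pair, where it was 9, and with no replicate block, where it was 1; neither included a member. The paired design is the one reported, and the unpaired fit without the replicate block left the Gas5 adjusted p at 0.9999. Members at an unadjusted p under 0.05 numbered 2 of 115 (1.74%, against 3.13% of all probes). They numbered 25 on the arrays with Atg7F/F in Cy5 alone (21.7%, against 7.26%), 13 with no filter (9.09%, against 3.58%), 7 with median centring (6.09%, against 3.01%), 7 with Atg7F/F in Cy3 alone (6.09%, against 4.7%), 6 with the random block (5.22%, against 6.76%) and 0 with an intensity trend (against 3.37%).

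The median log2 ratio of ribosomal protein probes was 0.17 with median centring, -0.041 on the arrays with Atg7F/F in Cy3 alone and 0.13 with Atg7F/F in Cy5 alone. Leaving out a replicate gave 0.00 without replicate 1 and 0.12 without replicate 2. The brighter Gas5 probe was at -5.96 without replicate 1 and -0.92 without replicate 2, each a single value with no test, and between -4.00 and -3.20 in all other settings, with adjusted p-values from 0.610 to 1. Of 31 named ribosomal protein probes, 8 changed sign without replicate 2, 7 with Atg7F/F in Cy3 alone, 5 with it in Cy5 alone, 5 with median centring, 3 without replicate 1, 1 with a normexp offset of 0 and none in the other settings. Keeping the flagged probes was chosen after seeing the data and gave a median of 0.05. The cause of these shifts was not tested. For dim probes such as the second Gas5 probe, the signal over background limits what can be measured.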
